A study of Arabidopsis thaliana with 2 samples.

Results

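Berberine bridge enzyme-like (BBE-like) genes of Arabidopsis chromosome 1 lie in tandem clusters, and 10 of them were listed here. The AT1G26 cluster held the 5 loci AT1G26380, AT1G26390, AT1G26400, AT1G26410 and AT1G26420, and the AT1G30 cluster the 5 loci AT1G30700, AT1G30710, AT1G30720, AT1G30730 and AT1G30740. A gene counted as measured if the platform's annotation gave it a probe that it shared with no other gene. This left 9 of the 10 genes, with 1 probe each, among 9253 genes measured in all, and AT1G26400 was not analysed here. The list was selected on the log ratios of these same arrays, so the log ratios of its genes are given as a description, with no test.

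RNA came from rosette leaves of 2-week-old plants kept in 16 h of light and 8 h of dark with no treatment. The over-expressors were 2 independent T1 plants, that is primary transformants with separate insertions, numbered 36 and 44, in which the 35S promoter drove NST1. That promoter is active in most tissues, and the labels describe ectopic secondary wall thickenings in organs above ground. Wild type was the control on each of the 2 arrays, with the over-expressor in Cy5 and wild type in Cy3. The labels do not say how many wild-type plants or extracts were used, so wild type counts as a single control without a spread of its own.

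BBE-like proteins are flavoproteins of the secretory pathway that carry a covalently bound FAD cofactor and oxidise alcohol or sugar groups of small molecules and wall fragments. Those that act as oxidases pass the electrons to oxygen and release hydrogen peroxide. The family is named for an enzyme of alkaloid synthesis in poppies, and its Arabidopsis members are known from defence metabolism, from the oxidation of cell wall oligosaccharides and from the oxidation of monolignols, the building blocks of lignin. NST1, of the NAC family of transcription factors, turns on the genes that build secondary walls.

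Values are the authors' deposited log ratios of the 2 dyes. They were read as log10, and a positive value as likely higher in the over-expressor, but neither the base nor the centring nor the direction is stated, and every fold depends on a base of 10. NST1 had 0 named probes and so gave no check of the direction. Over the 9335 probes with 1 gene the median log ratio was 0.002 in plant 36 and 0 in plant 44. The dyes were not swapped on any array, so an effect of the dye and of the genotype cannot be told apart. Signal intensities were not used here, so it is not known how far each probe stood above background.

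In the over-expressors, 8 of the 9 measured genes had positive log ratios on both arrays, and 6 of the 9 lay at or beyond 2-fold higher on both. Of all probes with 1 gene, 42.2% were above 0 on both arrays and 2.71% lay at or beyond 2-fold higher on both. On the low side, 2.44% of all probes with 1 gene lay 2-fold or more below wild type on both arrays, and 0 of the 9 genes did. Nothing is read from these shares, because the genes were selected on these values. The median log ratio of the 9 genes was 0.494 in plant 36 and 0.442 in plant 44. Plant 36 alone had 7 of the 9 at or beyond 2-fold higher (3.93% of all probes with 1 gene), and plant 44 alone had 6 (4.46%). The genes differed widely among themselves, with means over the plants between -0.119 and 1.17.

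The enzyme of best known function in the AT1G26 cluster is AT1G26380, also called FOX1, which makes an indole carbonyl nitrile during pathogen defence. Its log ratio was 0.384 in plant 36 and 0.342 in plant 44, a mean of 0.363 ± 0.030 (SD, n = 2 plants) or 2.31-fold if the base is 10. The plants were close to each other, and both lay above the 2-fold limit of 0.301 on the log10 scale.

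AT1G26390, its direct neighbour, had log ratios of 1.03 in plant 36 and 1.32 in plant 44. This corresponds to 10.7-fold and 20.7-fold if the base is 10, with a mean log ratio of 1.17 ± 0.20. It had the highest mean of the 9 genes and the rank 2 among all 9335 probes with 1 gene. AT1G26420, the last gene of the cluster, lay at 0.771 in plant 36 and 0.687 in plant 44 and had the rank 28, at 5.36-fold on average. The weakest measured gene of the cluster was AT1G26410, at 0.345 in plant 36 and 0.199 in plant 44. Its value thus passed the 2-fold limit in plant 36 and missed it in plant 44.

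In the AT1G30 cluster the first gene, AT1G30700, had log ratios of 0.544 in plant 36 and 1.12 in plant 44, or 3.50-fold and 13.3-fold if the base is 10. Both values were high, but the plants stood far apart. The difference of 0.579 between plant 44 and plant 36 was exceeded in size by 0.279% of the probes with 1 gene, where the median absolute difference was 0.036. With 1 array for each plant the difference could not be tested.

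AT1G30720 lay at 0.587 in plant 36 and 0.460 in plant 44, a mean of 0.523 ± 0.090 or 3.34-fold if the base is 10. AT1G30730, the gene beside it, lay at 0.494 in plant 36 and 0.442 in plant 44, a mean of 0.468 ± 0.037 or 2.94-fold. These adjacent genes were alike, with means 0.0555 apart and overlapping ranges. The plants lay in the same order for both genes, with plant 36 higher.

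The other genes of the AT1G30 cluster stood apart from these. AT1G30740 had log ratios of 0.071 in plant 36 and 0.203 in plant 44, both above 0 and both below the 2-fold limit. AT1G30710 lay at -0.076 in plant 36 and -0.162 in plant 44, the single measured gene of either cluster below 0 on both arrays. It sits directly between AT1G30700 and AT1G30720, whose means were higher than its own by 0.953 and 0.642. Its probe was tied to the gene through a cDNA entry, whereas the other 8 probes were tied to their genes through a RefSeq transcript of the same locus.

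**Figure D1:**
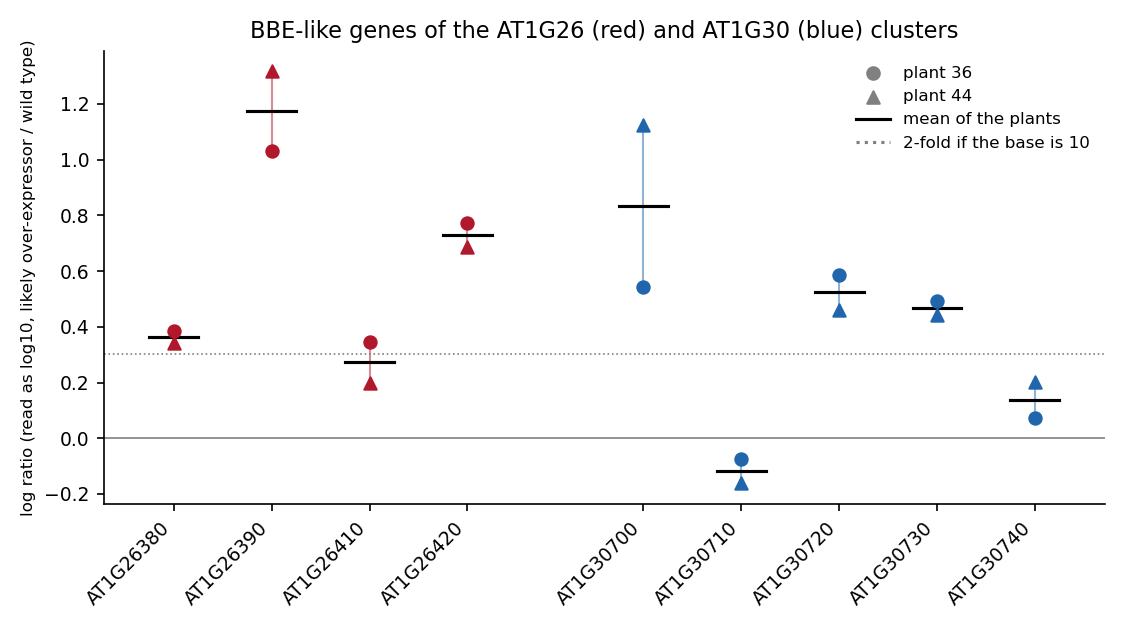
Log ratio (read as log10, likely over-expressor over wild type) of the 9 measured BBE-like genes, with the AT1G26 cluster in red and the AT1G30 cluster in blue. Circles are plant 36, triangles plant 44, bars the mean of the 2 plants and the dotted line 2-fold if the base is 10. AT1G26390 is highest at 1.03 and 1.32, the plants are farthest apart for AT1G30700, and AT1G30710 alone lies below 0.

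Ordered by mean log ratio, the genes ran AT1G26390, AT1G30700, AT1G26420, AT1G30720, AT1G30730, AT1G26380, AT1G26410, AT1G30740 and AT1G30710, so that the clusters interleaved. The ranges of the 2 plants overlapped between neighbours in this order except at 3 steps. These were from AT1G26420 to AT1G30720, from AT1G30730 to AT1G26380 and from AT1G30740 to AT1G30710. In plant 44, 3 of the 9 genes had the higher value (AT1G26390, AT1G30700 and AT1G30740), and in plant 36 the other 6 did. The SD among the 9 genes was 0.336 in plant 36 and 0.466 in plant 44.

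**Figure D2:**
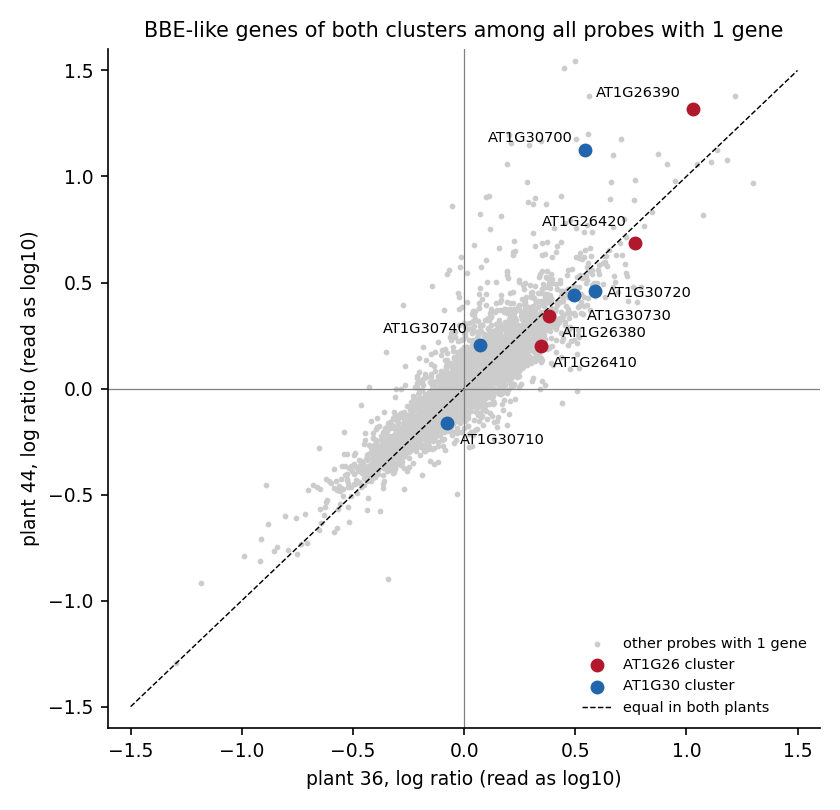
Log ratio in plant 36 (x axis) against plant 44 (y axis), both read as log10, for all 9335 probes with 1 gene (grey) and for the BBE-like genes of the AT1G26 (red) and AT1G30 (blue) clusters. The dashed line marks equal values. AT1G26390 and AT1G30700 lie above the line, at 1.32 and 1.12 in plant 44, and AT1G30710 lies below 0 in both plants.

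Mean log ratios of single genes ran over a range of 0.902 in the AT1G26 cluster and of 0.953 in the AT1G30 cluster. The median was 0.546 in the AT1G26 cluster (4 genes) and 0.468 in the AT1G30 cluster (5 genes). The difference of medians, AT1G26 minus AT1G30, was 0.0835 in plant 36 and 0.0725 in plant 44. Leaving out AT1G26390 or AT1G26420 turned the mean difference of 0.078 to -0.105, and with any other gene left out it lay between 0.0502 and 0.261, so the medians set no firm order between the clusters. With means over genes in place of medians the difference was 0.266, at 0.634 in the AT1G26 cluster and 0.369 in the AT1G30 cluster. Each cluster had 3 genes at or beyond 2-fold higher on both arrays.

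Genes beside the clusters were followed up to 10 places before and after each in the gene order of the TAIR10.1 RefSeq table. In that order each cluster is an unbroken row of 5 genes, and 575 other genes lie between the clusters. Of the 40 neighbours, 12 were measured, with mean log ratios between -0.423 and 0.128 and a median of -0.038. At or beyond 2-fold on both arrays, 0 of the 12 lay higher (2.71% of all probes with 1 gene) and 1 lower, AT1G30600 (2.44%). In limma, with Benjamini-Hochberg adjustment over all probes, 0 of the 12 rose and 2 fell, against 9.99% that rose and 12.4% that fell among all probes with 1 gene. At an unadjusted p under 0.05, 2 of the 12 were higher and 4 lower. Of the 9335 probes with 1 gene, 4377 had such a p in either direction, so nothing is read from these counts. With no prior, 0 probes of the whole table passed after adjustment.

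The neighbours that fell were AT1G26460, at -0.145 in plant 36 and -0.123 in plant 44 (limma adjusted p = 0.0428), and AT1G30600, at -0.473 and -0.373 (adjusted p = 0.034). Next to the AT1G30 cluster, AT1G30690 before it lay at -0.117 in plant 36 and -0.044 in plant 44. AT1G30750 after it lay at -0.044 in plant 36 and -0.054 in plant 44. Neither passed (adjusted p = 0.157 and 0.125). The measured genes nearest to the AT1G26 cluster were AT1G26320, 7 places before the cluster at a mean of -0.027, and AT1G26450, 3 places after it at -0.123. Neither passed (adjusted p = 0.421 and 0.087). The other measured neighbours did not pass either, and are AT1G26300 at a mean of 0.128, AT1G30630 at 0.065, AT1G30640 at 0.080, AT1G30780 at -0.0075 and AT1G30790 at -0.0015, besides AT1G30760, which is described below with its family.

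**Figure D3:**
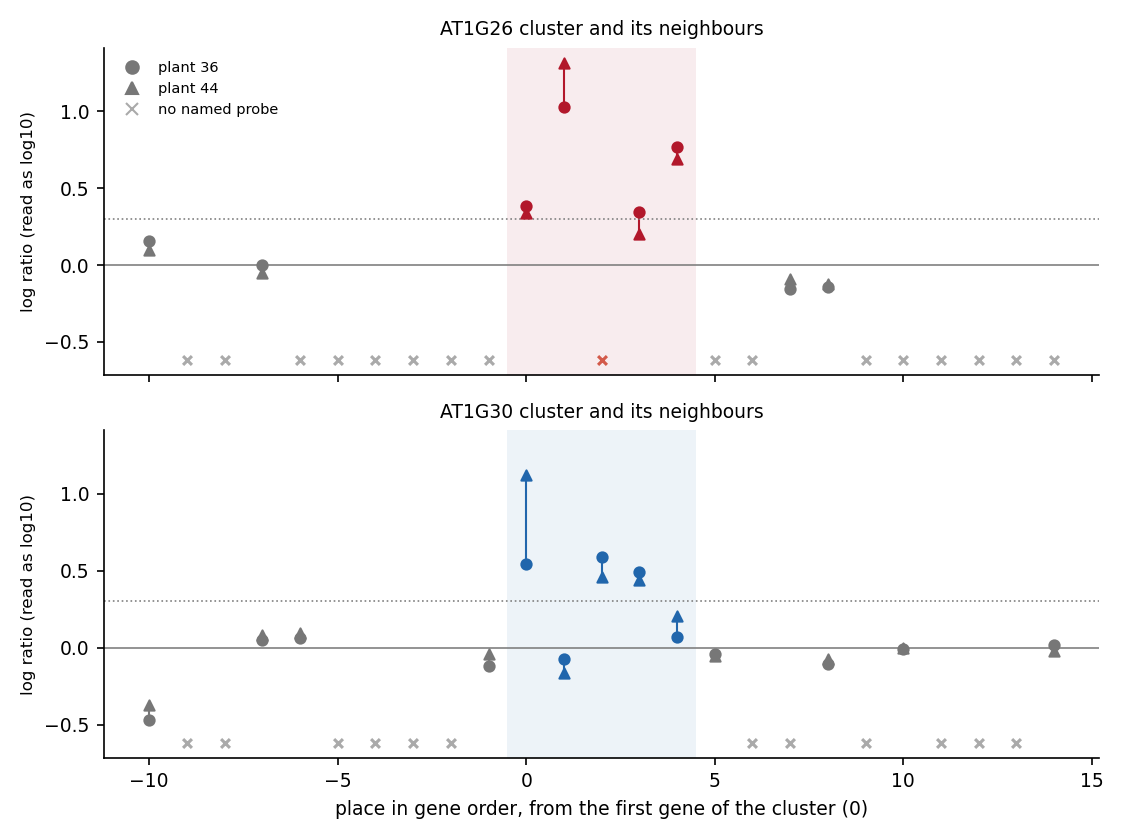
Log ratio (read as log10) by place in gene order, counted from the first gene of each cluster at 0, for the AT1G26 cluster (top) and the AT1G30 cluster (bottom). Circles are plant 36, triangles plant 44, grey symbols genes outside the cluster, crosses genes with no named probe, and the dotted line 2-fold if the base is 10. The high values lie inside the shaded clusters, whose genes were selected on these values. Of the 40 neighbours only 12 were measured, with means between -0.423 and 0.128.

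AT1G30760 lies 4 places after the AT1G30 cluster and belongs to the same family. It oxidises monolignols. Its log ratio was -0.105 in plant 36 and -0.076 in plant 44 and did not pass (limma adjusted p = 0.0707). It is among 17 other BBE-like genes listed for comparison, of which 13 were measured. Of these 13, 4 rose, 0 fell and 9 did not pass in limma, and at an unadjusted p under 0.05, 5 were higher and 2 lower. Of all probes with 1 gene, 9.99% rose and 12.4% fell, and 4377 of the 9335 had an unadjusted p under 0.05 in either direction. The 13 genes had a median log ratio of 0.012, against 0.468 for the 9 genes of the chromosome 1 clusters. This difference was not tested, since the 9 genes were selected on these values. The 17 others were also listed with earlier results of these data known. Their calls and p-values are thus given as description only.

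The other BBE-like genes that rose lie on chromosomes 4 and 5. AT5G44380 had log ratios of 1.14 in plant 36 and 1.13 in plant 44 (limma adjusted p = 0.0168), close to the mean of AT1G26390. AT5G44390 lay at 0.432 and 0.409 (adjusted p = 0.0213) and AT5G44360 at 0.393 and 0.425 (adjusted p = 0.0233). AT4G20860, which oxidises cellulose fragments, lay at 0.415 in plant 36 and 0.493 in plant 44 (adjusted p = 0.0295).

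The measured enzymes known to oxidise pectin fragments, 3 in all, did not pass the test. AT4G20830 lay at 0.184 in plant 36 and 0.313 in plant 44 (limma adjusted p = 0.0683), AT4G20840 at -0.030 and 0.016, and AT1G11770 at -0.021 and 0.035. AT2G34810 lay at -0.025 in plant 36 and 0.302 in plant 44, so that, as for AT1G30700, plant 44 was the higher. The remaining genes, AT5G44410, AT4G20800, AT5G44440 and AT5G44400, had means between -0.152 and 0.012. Of the 13 genes, 4 lay at or beyond 2-fold higher on both arrays (2.71% of all probes with 1 gene) and 0 at or beyond 2-fold lower (2.44%). The chromosome 1 clusters, whose genes were selected on these values, had 6 of 9 at or beyond 2-fold higher. Probe sequences were not used here, so whether probes of such related genes bind each other's transcripts was not tested.

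**Figure D4:**
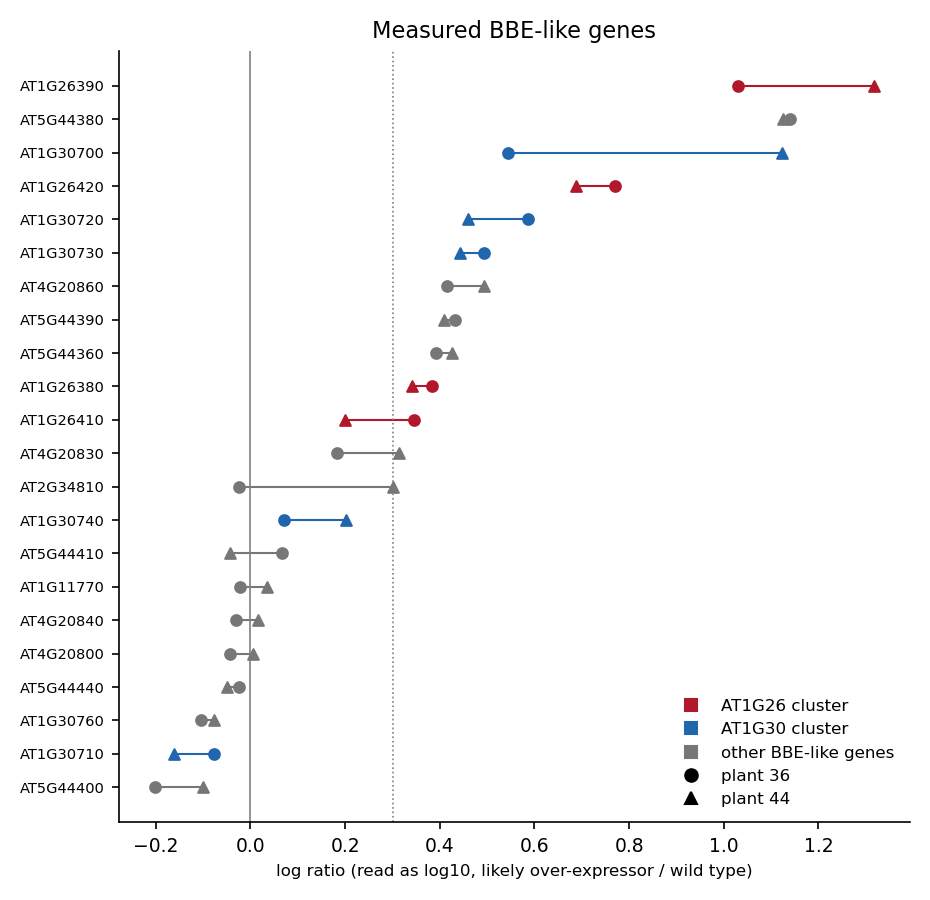
Log ratio (read as log10, likely over-expressor over wild type) of the 22 measured BBE-like genes, ordered by the mean of the plants, with the AT1G26 cluster in red, the AT1G30 cluster in blue and other BBE-like genes in grey. Circles are plant 36, triangles plant 44 and the dotted line 2-fold if the base is 10. AT1G26390 and AT5G44380 lead, and AT5G44400 and AT1G30710 are lowest, with means of -0.152 and -0.119.

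Related pathways were covered thinly by named probes. The lists of indole and nitrile defence metabolism (21 genes, the pathway of FOX1), of the response to elicitors and oligogalacturonides (15 genes) and of salicylate defence (10 genes) had 0 measured genes. Of 16 genes of monolignol synthesis 2 were measured and neither passed in limma, nor had an unadjusted p under 0.05. These were HCT, at a mean of 0.095 (adjusted p = 0.181), and CCR2, at 0.021 (adjusted p = 0.338).

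Of 13 genes of lignin polymerisation and its regulators 5 were measured, all of them peroxidases that use hydrogen peroxide. Of these 3 rose and 2 fell (9.99% and 12.4% of all probes with 1 gene). The list was chosen with earlier results of these data known. Nothing is therefore read from these shares, and the p-values are given as description. PRX52 (AT5G05340) had the highest mean of all probes with 1 gene, at 1.22 in plant 36 and 1.38 in plant 44 (limma adjusted p = 0.0233). AT5G64120 lay at 0.526 and 0.408 and AT2G41480 at 0.271 and 0.292 (adjusted p = 0.0349 and 0.0273). The peroxidases that fell were AT5G66390, at -0.199 and -0.231, and AT1G71695, at -0.243 and -0.265 (adjusted p = 0.0329 and 0.0286). Of 12 genes that remove hydrogen peroxide 2 were measured. The thylakoid ascorbate peroxidase TAPX fell, to -0.191 in plant 36 and -0.167 in plant 44 (adjusted p = 0.035), and its stromal counterpart SAPX lay at -0.083 and -0.019 and did not pass (adjusted p = 0.245).

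Log ratios carry no level, so the labelled tissue could not be checked by the presence of its markers. The marker lists were chosen with earlier results of these data known, so their calls and p-values are given as description only. Of 4 vessel markers 2 were measured and rose, where 9.99% of all probes with 1 gene rose. These were the carboxypeptidase gene scpl48, at a mean of 0.448, and the aspartic protease gene AT4G04460, at 0.447 (limma adjusted p = 0.0388 and 0.0326). Of 3 phloem markers 1 was measured, the sugar transporter SWEET11, which rose to 0.324 (adjusted p = 0.0233). The 3 root markers lay between -0.0775 and -0.030, and the trichome gene TRY at -0.024, and none of these passed. At an unadjusted p under 0.05 in limma, 2 of the 3 root markers were lower. Among the 9335 probes with 1 gene, 4377 had such a p in either direction, so nothing is read from this count. The 3 measured of 11 photosynthesis markers held the pair of values -0.22 and -0.082, which 73 probes shared and 0 of the 9 BBE-like genes did. Why so many probes hold the same pair was not tested, and nothing is read from it about photosynthetic cells. Guard cell markers had 0 measured genes. Whether a changed share of cell types had a part in the BBE-like values was not tested, and in whole leaves more cells of a type and more RNA in each cell cannot be told apart.

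The genes most like AT1G26390 were sought by the Euclidean distance between the pairs of log ratios of the 2 plants, over all probes with 1 gene. The 5 nearest were PRX52 at a distance of 0.198, the BBE-like AT5G44380 at 0.220, AT5G38900 at 0.259, the plant defensin gene PDF1.2 (AT5G44420) at 0.261 and AT4G33150, which encodes an enzyme that degrades lysine, at 0.266. The median pair of the 9 genes was that of AT1G30730 itself. Nearest to it were AT4G32340 at 0.0184, AT1G33970 at 0.0215, AT2G39210 at 0.0275 and AT3G50010 at 0.032. With 2 arrays, likeness means only that both values were close.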

How the data were processed

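The deposited table held a log ratio for each of 22575 probes on each array, with 0 missing values. It was read as log10 of Cy5 over Cy3, the form in which such scanners' software writes ratios and whose limits of -2 and 2 the deposited values keep to. Per the labels only the RNA and the dyes are known, and the authors' normalization was not stated. Probes were named through the platform's annotation and the TAIR10.1 RefSeq table: 9335 had 1 gene (9317 in RefSeq), 40 several, and 13200 were unnamed here. Of 6185 probes named through a RefSeq transcript, 6072 had one of the named locus.

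limma 3.58.1 (R 4.3.3) was fitted to all probes with an intercept only, two-sided against 0, with 1 residual degree of freedom, a prior of 1.37 and Benjamini-Hochberg adjustment (threshold 0.05). "Rose" and "fell" mean past this threshold. It measures only the spread between 2 plants, and their number limits the precision. The fit was tested on simulated data. Tables were made with pandas 2.3.3.

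The BBE-like genes and the lists were chosen with earlier results of these data known. Named were all measured BBE-like genes and neighbours, up to 5 genes past the threshold of each list (otherwise the 2 largest), and the 5 nearest patterns. Alternatives covered centring, scaling, single plants, fold limits, log base and prior.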

Additional observations from a re-analysis of the deposited data

How the results depend on the processing

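None of the 9 BBE-like genes changed sign under centring, centring with scaling or in either plant alone. Centring and scaling moved each by less than the SD of the plants. At a 3-fold limit 3 of the 9 genes remained on both arrays (AT1G26390, AT1G26420 and AT1G30700), and with a log2 reading 1 (AT1G26390). Among all probes with 1 gene, 700 lay beyond 1.5-fold, 80 beyond 3-fold and 6 with a log2 reading, against 253 at 2-fold, and 367 to 416 on single plants. The difference of the clusters was 0.266 with means over genes and reversed to -0.105 without AT1G26390 or without AT1G26420. It was 0.261 without AT1G26380 or AT1G26410, 0.244 without AT1G30700 or AT1G30720, 0.216 without AT1G30730 and 0.0502 without AT1G30710 or AT1G30740. All omissions but that of AT1G26390 were chosen after the data were seen. For AT1G26390 only the rule was planned, to leave out the gene with the highest mean in these data.

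In limma 2001 of all probes rose and 2795 fell, and 933 and 1156 of those with 1 gene. After centring, the numbers that rose were 3021 and 1431, and a fit restricted to probes with 1 gene raised 933 to 1609. No call was left (0) without a prior, where 4329 probes had an unadjusted p under 0.05, or at a threshold of 0.01 in limma, where 9718 did. This includes the 7 listed genes that rose and the 3 that fell. Why the counts shifted was not tested. No paired analysis was possible because there is 1 group of 2 plants, and limma without 1 plant was not run because no residual degree of freedom is left.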

Other observations

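Rows of neighbouring genes with high values were looked for across all chromosomes, in a search chosen after the values had been seen. A row was taken as at least 3 genes at or beyond 2-fold higher on both arrays (if the base is 10) within 5 places of the RefSeq gene order. Among 253 such genes there were 3 rows, and each consisted of BBE-like genes. These were the AT1G26 cluster with 3 of 4 measured genes, the stretch from AT1G30700 to AT1G30730 with 3 of 4, and the stretch from AT5G44360 to AT5G44390 on chromosome 5 with 3 of 3. Within 10 places the rows were again 3, and the defensin gene PDF1.2 (AT5G44420) joined that of chromosome 5, where it lay at 1.11 in plant 36 and 1.07 in plant 44. No chance test was made, and related neighbours may share signal between their probes, which was not tested. The rows of chromosome 1 lie in clusters selected on these values. The BBE-like genes of the chromosome 5 row were also listed with earlier results of these data known. Nothing is therefore read from finding the 3 rows. How many stretches of the genome had enough named probes to form a row was not counted.

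At a limit of 1.5-fold the rows numbered 7, of which 3 held BBE-like genes throughout, and at 3-fold there were 0. The other 4 rows at 1.5-fold ran from AT3G46080 to AT3G46110, with the zinc finger gene ZAT7 (AT3G46090) at 0.215 in plant 36 and 0.329 in plant 44, from AT3G46690 to AT3G46720, from AT4G38540 to AT4G38560 and from AT5G43430 to AT5G43450. The last of these held ETFBETA (AT5G43430), an electron transfer flavoprotein subunit, at 0.207 in plant 36 and 0.197 in plant 44.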
